A study of Homo sapiens with 4 samples.

Results

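The genes described are 9 cofactors of heterochromatin silencing, TRIM28, SETDB1, CBX1, CBX3, CBX5, MPHOSPH8, PPHLN1, MORC2 and ATRX. They were taken by name from a list of proteins that KRAB repression and transposon silencing rely on. No cut-off on a measured value was used, but earlier results of these data were known. All 9 were found, each as a single entry per library, among 28307 gene symbols. Expression was measured by bulk RNA sequencing of excitatory neurons made from WTC11, an established line of human induced pluripotent stem cells, with 2 CRISPRi libraries and 2 control libraries, which the labels call biologically independent.

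The neurons of both groups carried dCas9-KRAB, a Cas9 that cannot cut fused to the KRAB repressor domain, driven by the CAG promoter from an intron of CLYBL. The controls thus carried the KRAB fusion too and differed from the CRISPRi group in the guide. CRISPRi neurons received guides against 1 MIR-family transposable element on chromosome 11, with 2 guides per element, and control neurons received the empty guide vector. The element is given as 47605296 to 47605575 in the study's design text and as 47608036 to 47608220 in its title, and which guide went into which library is not given in the sources used here. Lentivirus packaged in 293T cells was added after 2 weeks of differentiation at a multiplicity of infection of about 3. Puromycin was applied at 0.5 µg/mL for 4 days, and cells were collected 7 days after the virus.

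KRAB zinc finger proteins bind transposons and other sequences, and their KRAB domain recruits TRIM28, also called KAP1. TRIM28 brings in SETDB1, which trimethylates histone H3 at lysine 9, and that mark is bound by the HP1 proteins encoded by CBX1 (HP1 beta), CBX3 (HP1 gamma) and CBX5 (HP1 alpha). The HUSH complex, which contains MPHOSPH8 and periphilin (PPHLN1), also binds the mark and works with the ATPase MORC2, while ATRX deposits histone H3.3 at repeats together with DAXX. The question put to the data was at what level these neurons expressed this machinery, and whether guides against the element changed it.

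Library totals were 39325038 to 44839748 gene counts in 3 libraries and 944993 in control replicate 1, which was 41.6 times shallower than the shallowest of the others. A level is given as CPM, counts scaled to a library total of 1000000, and in control replicate 1 a single count is 1.06 CPM. That library also stood apart in its markers: 10 dividing-cell genes summed to 379 CPM there and to 64.3 to 70.0 CPM in the other 3 libraries, and all 10 were highest in it. Pan-neuronal genes summed to 18123 CPM against 20706 to 21504 CPM, with all 10, NEFM and NEFL among them, lowest in it. The glutamatergic markers SLC17A6 and SLC17A7 were expressed in all 4 libraries, whereas microglial markers summed to at most 0.268 CPM. The astrocyte gene GFAP was at most 0.0962 CPM. Of the pluripotency markers NANOG was at most 0.0241 CPM and POU5F1 at most 0.305 CPM, but LIN28A was at 13.8 to 21.0 CPM. The progenitor markers NES and VIM were at 731 to 864 and 119 to 217 CPM. In the same list PAX6 was at 7.36 to 12.7 CPM, SOX2 at 1.32 to 4.23 CPM and HES5 at 0 to 0.794 CPM. Mesenchymal markers summed to 46.6 to 75.0 CPM. Because control replicate 1 stood apart, results are given with and without it. The part of the dividing-cell genes in the results below was not tested.

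All 9 silencing factors were expressed in these neurons, and over the 3 deep libraries, CRISPRi and control together, the level of each differed by at most 1.10-fold. Of the 9, 0 were called higher and 0 lower by edgeR's quasi-likelihood test at a Benjamini-Hochberg adjusted p under 0.05, where 0% of 15708 tested genes were called higher and 0.0255% lower. At an unadjusted p under 0.05 by the edgeR test the count of members was 0, against 151 of the 15708 tested genes. DESeq2 and limma-voom called 0 members, where they called 0.0646% and 0.0127% of all genes. All 9 passed the filter on low counts, the smallest count being the 53 reads of MPHOSPH8 in control replicate 1. CBX5 was the exception to the even levels, since control replicate 1 held several times more of it than every other library.

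**Figure D1:**
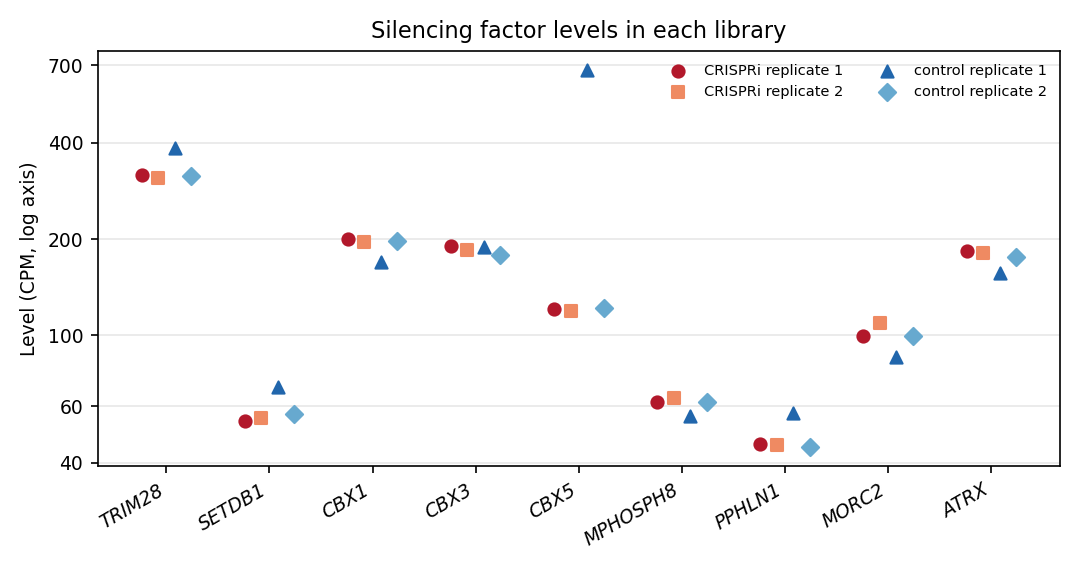
Level of each silencing factor in each library, in CPM on a log axis; each point is 1 library. The 4 points of a gene lie close together except for CBX5, at 677 CPM in control replicate 1 and 119.5 to 122 CPM in the other 3 libraries.

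The order of the levels needs a scale per length, because a longer transcript gives more reads, and CPM was divided by the exon length of GENCODE 29 (CPM per kilobase). Over the 3 deep libraries TRIM28 was highest at 106 ± 1.35 CPM per kilobase (mean ± SD, n = 3), followed by CBX3 at 93.1 ± 2.91 and CBX1 at 73.0 ± 0.664. MORC2 (17.0 ± 0.929), ATRX (16.1 ± 0.359), MPHOSPH8 (14.8 ± 0.272) and SETDB1 (11.9 ± 0.310) formed a lower tier on this scale. CBX5 at 10.2 ± 0.0919 and PPHLN1 at 9.27 ± 0.111 CPM per kilobase (mean ± SD, n = 3) came last. No neighbours in this order overlapped over the 3 deep libraries, although MORC2 and ATRX all but met, and the widest break was that between CBX1 and MORC2.

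The authors' FPKM, taken here as a count scaled by length and by depth, gave the same upper tier and 2 changes of order. How it was computed is not given in the sources used here, and 602 to 954 gene rows per library had a count but an FPKM of 0. TRIM28 was at 90.0 to 92.1 FPKM over the deep libraries, CBX1 at 87.2 to 88.6 and CBX3 at 84.1 to 89.8, so that CBX1 and CBX3 overlapped. PPHLN1, which has 18 transcripts listed in each deep library, was at rank 4 with 18.9 to 20.4 FPKM rather than at rank 9. Its place therefore depended on the scale used, and the reason was not tested. CBX5 was last at 10.0 to 10.2 FPKM. Among 19248 symbols with an FPKM above 0, TRIM28 exceeded 96.7%, SETDB1 75.0% and CBX5 71.1%. The KRAB zinc finger genes, whose products act through TRIM28, had a lower median: of a list of 30, 27 were above 0, with a median of 3.91 FPKM and a range of 0.0752 to 15.4 FPKM, the highest being ZNF429.

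TRIM28, the KRAB corepressor, lies on chromosome 19 (58544064 to 58550715, plus strand, hg38 as in the deposited rows). It was at 318 and 309.9 CPM in CRISPRi replicates 1 and 2 and at 384 and 316 CPM in control replicates 1 and 2. The groups overlapped, and only control replicate 1 was high. The log2 fold change of CRISPRi over control was -0.13 (SE 0.106, 95% confidence interval -0.39 to 0.14, edgeR adjusted p = 1). Without control replicate 1 it was -0.0043, with the lone control assumed to vary like the CRISPRi libraries. Without control replicate 2, with control replicate 1 as the lone control, TRIM28 was called lower at -0.26 (edgeR adjusted p = 0.0233), in a comparison that called 4.97% of 16064 genes lower.

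SETDB1, the histone methyltransferase that TRIM28 recruits, lies on chromosome 1 (150926263 to 150964737, plus strand). It was at 53.9 and 55.2 CPM in CRISPRi neurons and at 68.8 and 56.8 CPM in controls. The CRISPRi values were both below both control values, but control replicate 2 lay close to CRISPRi replicate 2. The log2 fold change was -0.12 (SE 0.102, interval -0.37 to 0.13, edgeR adjusted p = 1), and -0.05 without control replicate 1. In control replicate 1, SETDB1 rested on 65 counts, whose exact Poisson 95% interval gives 0.960 to 1.59 times the mean of the other libraries.

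Per length, the HP1 genes fall into an abundant pair and a scarce member. CBX1 lies on chromosome 17 (48070059 to 48101478, minus strand) and was at 199.6 and 196 CPM in CRISPRi neurons and 169 and 197 CPM in controls. CBX3, on chromosome 7 (26201443 to 26213607, plus strand), was at 190.3 and 184 CPM in CRISPRi neurons and 188 and 179 CPM in controls. Both genes overlapped between the groups, with log2 fold changes of 0.10 for CBX1 (SE 0.0961) and 0.05 for CBX3 (SE 0.0726), and both had an edgeR adjusted p of 1. Without control replicate 1 the values were 0.02 and 0.07. GENCODE 29 holds 5 pseudogenes named after CBX1, 9 after CBX3 and 1 after CBX5. Their likeness to the genes was not measured, and how any shared reads were assigned is not given in the sources used here.

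CBX5 lies on chromosome 12 (54230942 to 54280122, minus strand) and was at 121 and 119.5 CPM in CRISPRi neurons. The controls were at 677 and 122 CPM, so only control replicate 1 was high, and the other control lay next to both CRISPRi libraries. The high value rested on 640 counts, with an exact Poisson 95% interval of 626 to 732 CPM, which covers counting error only. It was 5.61 times the mean of the other 3 libraries. By edgeR the log2 fold change was -1.59 (SE 0.861, interval -3.98 to 0.80, adjusted p = 1), and by limma-voom -0.35. Without control replicate 1 it was -0.01 (interval -0.12 to 0.09), and without control replicate 2 it was -2.46. That last value restates the high level in control replicate 1, the only control left, and is not a separate test.

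Of 4692 genes with at least 50 counts in control replicate 1, 0.448% were more than 5-fold above the mean of the other libraries there, and CBX5, at rank 18 of these 21 genes, was the only 1 of the 9 silencing factors among them. The highest ratios were those of the read-through gene BLOC1S5-TXNDC5 (744), the ribosomal RNA gene RNA45SN1 (209) and UTP14C (186). The ribosomal RNA genes RNA45SN5 (18.4) and RNA18SN4 (6.44) were also in the group. The dividing-cell genes TOP2A, MKI67 and BIRC5 and the replication gene MCM5 were in it too, at ratios of 6.35, 5.88, 14.3 and 5.91. Other genes in it included DSG2 (33.1), CHML (13.2), PLS3 (6.87), SLC1A5 (5.20) and FOXC1 (5.05). The summed dividing-cell markers stood at 5.62 times the mean of the other 3 libraries. What part the source of these RNAs had in the CBX5 value was not tested.

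**Figure D2:**
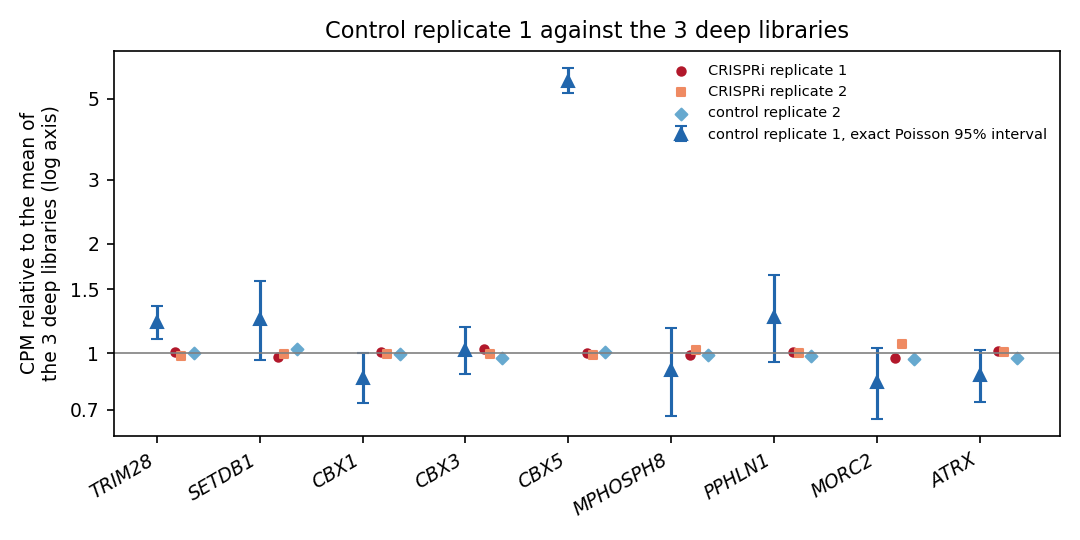
Level in control replicate 1 over the mean of the other 3 libraries for each silencing factor, on a log axis; triangles with bars are control replicate 1 with its exact Poisson 95% interval, and small points are the other 3 libraries. CBX5 stands at 5.61 (5.19 to 6.06), and the other members lie between 0.835 and 1.26.

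The share of each gene in the summed HP1 level, from CPM per kilobase, shows the same shift. CBX3 made up 53.4% and 53.0% in CRISPRi neurons and 44.3% and 52.1% in control replicates 1 and 2. CBX1 made up 41.0% and 41.3% in CRISPRi neurons and 29.1% and 42.0% in the controls. CBX5 made up 5.66% and 5.74% in CRISPRi neurons and 26.6% and 5.93% in the controls. The 3 deep libraries thus had nearly the same makeup, and control replicate 1 differed from it. In CPM, CBX5 was 5.61 times the mean of the others there and CBX1 0.857 times (exact Poisson 95% interval 0.730 to 1.00), while for CBX3 the interval of control replicate 1 held all 3 deep values. From the authors' FPKM the CBX5 share was likewise 25.8% in control replicate 1, against 5.38% to 5.62% in the others, but CBX1 and CBX3 were then nearly equal, at 47.0% and 47.6% in CRISPRi replicate 1.

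**Figure D3:**
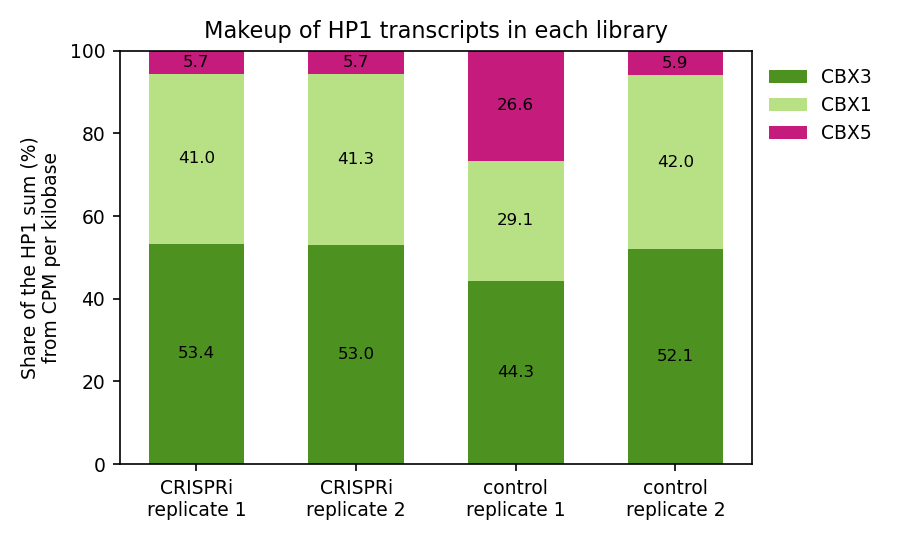
Share of CBX3, CBX1 and CBX5 in the summed HP1 level of each library, in percent of CPM per kilobase; each stacked bar is 1 library and sums to the whole. The CBX5 segment is 5.66% to 5.93% in 3 libraries and 26.6% in control replicate 1.

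The deposited rows list the transcripts behind each gene, and for CBX5 the lists differ between libraries. The transcript that begins at the upstream start, at 54280102 in GENCODE 29, was listed in all 4 libraries and was the only one listed in control replicate 1. The other 2 transcripts begin at 54259592 and 54259545, downstream on the minus strand, and were listed in the 3 deep libraries only. SETDB1, PPHLN1 and MORC2 also had shorter lists in control replicate 1, the shallow library. They rested on 65, 54 and 81 counts there, against 1758 to 4536 in the deep libraries. CBX5 had 640 counts there against 4786 to 5417, and the part of depth in the lists was not tested. SETDB1 had 2 transcripts there against 4 or 5 in the deep libraries, PPHLN1 6 against 18 and MORC2 1 against 3. CBX1, CBX3 and ATRX had both of their transcripts listed in every library. Which transcripts the CBX5 reads of control replicate 1 came from was not tested.

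The 250 bases before a RefSeq start of CBX1, of CBX3 and of 2 of the 3 CBX5 starts are shown to set the starts of the abundant HP1 genes beside those of the scarce one. They are from RefSeq on GRCh38.p14 and read 5′ to 3′ on the gene's strand, with capitals marking the CG dinucleotide (the motif CG, which reads the same on both strands). CBX1 is at chr17:48101187-48101436 on the minus strand, before a start at 48101186 that lies inside the deposited locus rather than at its end (48101478), and CBX3 at chr7:26201193-26201442 on the plus strand. The run before the upstream CBX5 start is at chr12:54280123-54280372 and that before 1 of the 2 downstream starts at chr12:54259587-54259836, both on the minus strand.
CBX1: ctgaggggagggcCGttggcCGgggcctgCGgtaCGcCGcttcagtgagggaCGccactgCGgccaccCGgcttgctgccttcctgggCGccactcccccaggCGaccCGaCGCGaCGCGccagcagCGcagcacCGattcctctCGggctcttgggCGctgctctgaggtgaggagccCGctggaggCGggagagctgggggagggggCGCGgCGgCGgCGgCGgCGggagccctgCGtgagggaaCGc
CBX3: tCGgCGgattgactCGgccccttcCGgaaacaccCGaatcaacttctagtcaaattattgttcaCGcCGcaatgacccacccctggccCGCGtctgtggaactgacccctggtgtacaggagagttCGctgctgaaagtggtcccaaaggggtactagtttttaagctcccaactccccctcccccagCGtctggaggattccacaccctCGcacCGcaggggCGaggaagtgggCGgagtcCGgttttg
CBX5 upstream: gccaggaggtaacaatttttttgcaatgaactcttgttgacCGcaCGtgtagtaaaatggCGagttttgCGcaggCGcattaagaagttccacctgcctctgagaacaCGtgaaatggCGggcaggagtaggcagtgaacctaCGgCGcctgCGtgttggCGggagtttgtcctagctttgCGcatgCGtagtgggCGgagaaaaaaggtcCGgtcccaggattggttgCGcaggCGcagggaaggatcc
CBX5 downstream: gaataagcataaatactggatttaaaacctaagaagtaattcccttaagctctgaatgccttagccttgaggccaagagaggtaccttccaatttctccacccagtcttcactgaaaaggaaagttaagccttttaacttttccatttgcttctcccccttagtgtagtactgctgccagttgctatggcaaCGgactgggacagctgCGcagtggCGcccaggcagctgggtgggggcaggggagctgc

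The sequences differ in their CG content. The printed runs hold 30 CG dinucleotides for CBX1, 16 for CBX3, 17 for the upstream CBX5 start and 3 for the downstream one shown. In the full RefSeq window, which adds 50 bases after the start, the counts are 38, 19, 25 and 4. Of 35116 such windows of the same length, 96.0% hold at least 1 CG and the median is 14. CBX1 exceeds 90.1% of them, CBX3 57.1%, the upstream CBX5 start 68.0% and the downstream one shown 24.5%. The other downstream CBX5 window, not shown, holds 6 and exceeds 33.7%. Windows were found for 7 of the 9 members. Those of MORC2 and MPHOSPH8 hold 35 and 31, SETDB1 has starts with 15 and 22, and PPHLN1 has starts with 31 and 3. These counts are a description of the sequence.

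MPHOSPH8, the HUSH subunit whose chromodomain binds the methylated lysine, lies on chromosome 13 (19633659 to 19673441, plus strand). It was at 61.8 and 63.8 CPM in CRISPRi neurons and 56.1 and 61.8 CPM in controls, groups that overlap narrowly. The log2 fold change of MPHOSPH8 was 0.07 (SE 0.0881, interval -0.15 to 0.29), and 0.03 without control replicate 1. PPHLN1, the RNA-binding subunit of HUSH, lies on chromosome 12 (42326145 to 42448621, plus strand) and was at 45.8 and 45.4 CPM in CRISPRi neurons and 57.1 and 44.7 CPM in controls. For PPHLN1 the log2 fold change was -0.05 (SE 0.118, interval -0.35 to 0.24), and it changed sign without control replicate 1 (0.033) and with limma-voom (0.018). Both genes had an edgeR adjusted p of 1. TASOR, the scaffold of HUSH, was at 63.4 and 65.3 CPM in CRISPRi neurons and 69.8 and 62.5 CPM in controls, and its groups overlapped.

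MORC2, the ATPase that HUSH recruits, lies on chromosome 22 (30925130 to 30968774, minus strand). It was at 99.6 and 109 CPM in CRISPRi neurons and 85.7 and 99.2 CPM in controls. The groups did not overlap, though CRISPRi replicate 1 and control replicate 2 were almost equal and CRISPRi replicate 2 was the high library. The log2 fold change of MORC2 was 0.15 (SE 0.100, interval -0.10 to 0.39, edgeR adjusted p = 1), and 0.08 without control replicate 1. The antisense gene MORC2-AS1 overlaps it, and had 709 and 148 counts in CRISPRi neurons and 0 and 605 in controls, lowest among the deep libraries where MORC2 was highest. Summed with MORC2-AS1, MORC2 was at 115 and 113 CPM in CRISPRi neurons and 85.7 and 115 CPM in controls, and the ratio of highest to lowest over the deep libraries was 1.02 against 1.10 for MORC2 alone. The strand setting of the counting is not given in the sources used here, so reads of the pair cannot be told apart.

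ATRX, the chromatin remodeller, lies on chromosome X (77504878 to 77786216, minus strand). It was at 183 and 181 CPM in CRISPRi neurons and 157 and 175 CPM in controls, and both CRISPRi libraries were above both controls. The log2 fold change was 0.13 (SE 0.0858, interval -0.09 to 0.34, edgeR adjusted p = 1). It was 0.06 without control replicate 1, and -0.019 with the other libraries thinned to the total of control replicate 1. Its partner DAXX was at 49.1 and 46.3 CPM in CRISPRi neurons and 52.9 and 49.1 CPM in controls. DAXX thus overlapped between the groups.

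Over the 9 genes, MORC2 and ATRX were higher in both CRISPRi libraries than in both controls, where 17.8% of tested genes had that pattern. SETDB1 and CBX5 were lower in both, where 16.5% had it, and the other 5 overlapped. The median log2 fold change was 0.05 for the 9 genes and 0.009 for all tested genes, and without control replicate 1 it was 0.03 and -0.00017. For the 8 members other than CBX5 the 95% intervals lay between 0.764-fold and 1.31-fold. Without control replicate 1 all 9 lay between 0.881-fold and 1.18-fold, with edgeR adjusted p of 0.98 to 0.995; 0 of the 9 were called there, where 0.437% of genes were called higher and 0.222% lower. In bulk RNA, fewer cells of a type and less RNA per cell cannot be told apart.

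**Figure D4:**
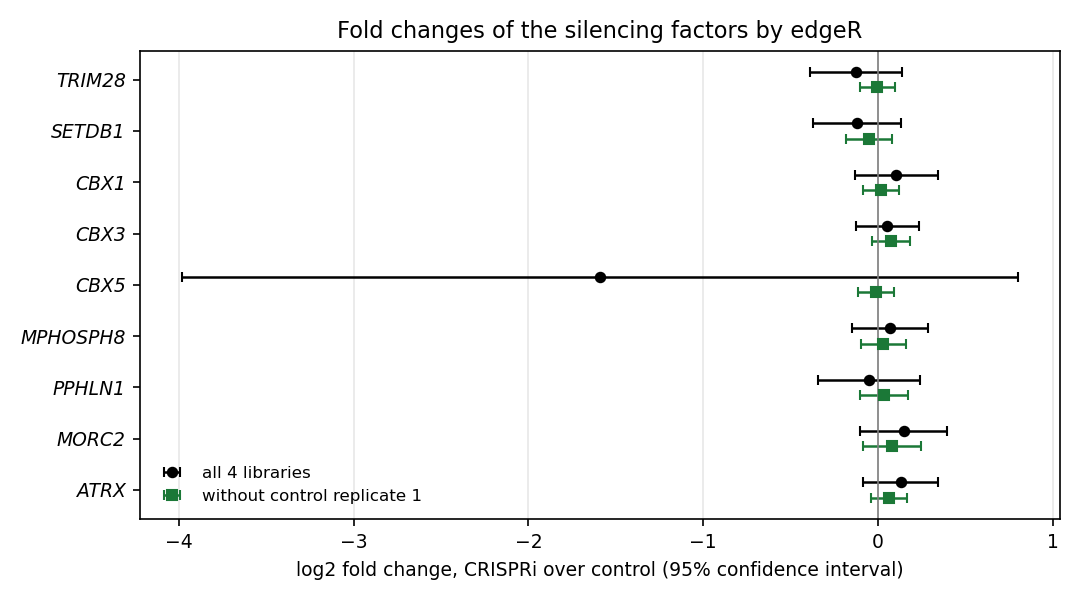
Log2 fold change of CRISPRi over control for each silencing factor by edgeR, with 95% confidence intervals; black circles use all 4 libraries and green squares leave out control replicate 1. The CBX5 interval runs from -3.98 to 0.80 with all 4 libraries and from -0.12 to 0.09 without control replicate 1.

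The spread among the 3 deep libraries was small. The highest over the lowest CPM was 1.02 for TRIM28, CBX1, CBX5 and PPHLN1, 1.03 for MPHOSPH8 and 1.04 for ATRX. It was 1.05 for SETDB1, 1.06 for CBX3 and 1.10 for MORC2. The median of the members, 1.03, compares with 1.05 over 4527 tested genes of the same range of levels. Control replicate 1 departed from this spread for TRIM28 (1.22 times the mean of the deep libraries, exact Poisson 95% interval 1.10 to 1.35) and CBX5, where no deep value lay inside its interval. For 5 members all 3 deep values lay inside that interval, and for CBX1 and MORC2 2 of 3 did.

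Partners of these factors were then examined, 122 genes in 9 lists, of which 105 were tested. By edgeR's quasi-likelihood test 0 were called. An unadjusted p under 0.05 was found for 3, HP1BP3 and POGZ among them, and for 151 of all 15708 genes tested. DESeq2 called 1 partner and limma-voom 0, where they called 0.0646% and 0.0127% of all genes. The genes for HP1-binding proteins had the lowest median, with 2 of 7 log2 fold changes positive and a median of -0.16, which was -0.05 without control replicate 1.

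HP1BP3, an HP1-binding protein related to linker histones, was at 103 and 105 CPM in CRISPRi neurons and 193 and 158 CPM in controls. Both controls were above both CRISPRi libraries. Its log2 fold change was -0.70 (SE 0.101, edgeR adjusted p = 0.591) and did not pass. The call depended on the method. DESeq2 called HP1BP3 at -0.71 (adjusted p = 0.0119), and so did edgeR with a replicate term at -0.72 (adjusted p = 8.97e-06). It was not called by limma-voom at -0.63 (adjusted p = 0.474). Nor was it called by edgeR after thinning to the depth of control replicate 1, at -0.60 (adjusted p = 0.993). Dropping each library in turn gave values from -0.86 to -0.60, in fits that share libraries and are not separate tests.

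POGZ, a zinc finger protein that binds HP1 alpha, followed the same order, at 99.0 and 94.7 CPM in CRISPRi neurons and 157 and 129 CPM in controls. Its log2 fold change was -0.50 (SE 0.098, edgeR adjusted p = 1) and did not pass. POGZ was not called by DESeq2 at -0.51 or by limma-voom at -0.43 (limma-voom adjusted p = 0.792). By edgeR with a replicate term it was called at -0.53 (adjusted p = 0.0144). Dropping each library in turn gave values from -0.66 to -0.41, again in fits that share libraries. ATF7IP, which stabilises SETDB1, was at 269 and 259 CPM in CRISPRi neurons and 236 and 258 CPM in controls.

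ADNP, which forms a complex with HP1 and the remodeller CHD4, was named after its values were seen. It was at 44.5 and 258 CPM in CRISPRi replicates 1 and 2 and at 260.3 and 257.6 CPM in the controls, so CRISPRi replicate 1 alone was low. The mean of the other 3 libraries was 5.81 times its value, on 1996 counts in CRISPRi replicate 1. Its log2 fold change was -0.76 (edgeR adjusted p = 1) and 0.01 without CRISPRi replicate 1. Without CRISPRi replicate 2, where 0.181% of genes were called lower, it was -2.53. That value restates the low level in CRISPRi replicate 1, the only CRISPRi library left, and is not a separate test. Which guide that library received is not given in the sources used here, and the cause was not tested.

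**Figure D5:**
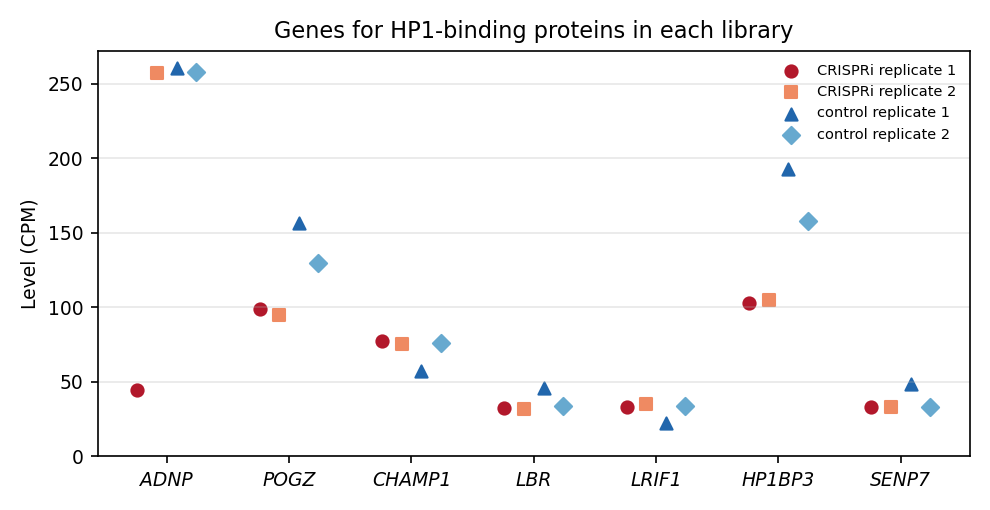
Level of 7 genes for HP1-binding proteins in each library, in CPM; each point is 1 library. HP1BP3 and POGZ lie higher in both controls than in both CRISPRi libraries, and ADNP is at 44.5 CPM in CRISPRi replicate 1 and 257.6 to 260.3 CPM elsewhere.

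The remaining lists held no called gene with all 4 libraries. Partners of TRIM28 and SETDB1 had a median log2 fold change of 0.05 (8 of 14 positive) and HUSH and MORC relatives one of -0.01 (3 of 6 tested positive). Genes for ATRX, DAXX and H3.3 deposition were at -0.02 (4 of 11 tested positive). The NuRD list, the deacetylase complex that TRIM28 also recruits, was at -0.06 with 2 of 13 positive, and at 0.01 without control replicate 1. Other H3K9 methyltransferases and demethylases were at -0.0013 (7 of 15 positive), and DNA methylation factors at -0.08 (5 of 12 positive). KRAB zinc finger genes were at 0.07 (21 of 27 tested positive) and 0.06 without control replicate 1, against 8281 of 15708 positive over all genes.

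Several partners were high in control replicate 1 alone. HDAC1, a NuRD deacetylase, was at 47.6 CPM there and 5.06 to 5.65 CPM in the other 3 libraries. ASF1B, a histone chaperone of dividing cells, was at 12.7 CPM on 12 counts and at 0.937 to 1.09 CPM elsewhere. The maintenance methyltransferase DNMT1 was at 117 CPM against 82.1 to 87.6 CPM, and MBD3 at 177 CPM against 127 to 133 CPM. DNMT3A, a de novo methyltransferase, was low in it, at 110.1 CPM against 144 to 154 CPM. Without control replicate 2, 16 partners passed, these 5 among them, in a comparison that called 8.58% of all genes; the dividing-cell markers stood high in that same library, and their part in these values was not tested.

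Germline genes, which are kept silent in somatic cells, were at or near 0. Of 12 listed genes, 9 had 0 counts in all 4 libraries, and the largest count in any library was 4. 0 of the 12 passed the filter, and no fold change is given. In control replicate 1 all 12 were at 0, where 3 counts, the limit that a count of 0 allows, equal 3.17 CPM.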

How the data were processed

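Polyadenylated RNA was sequenced as 75 bp read pairs in 4 libraries. The deposited tables give 1 whole-number count and 1 FPKM-like value per gene row, both made by the authors; the FPKM scale was inferred from the values, since the tables have no header. The build was hg38, and edgeR and limma were among the tools, per the submitters' processing notes; how reads were aligned, counted and assigned to a strand is not given in the sources used here. Lists of transcripts, deposited for each row, were used only for members, to describe which transcripts each library listed.

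Counts were summed per symbol over all contigs and scaled to CPM. CRISPRi was compared with control over all genes in R 4.3.3 with the quasi-likelihood F test of edgeR 4.0.16 (robust fit, TMM scaling, the filter of filterByExpr, group as sole term), with Benjamini-Hochberg adjustment over 15708 genes and a threshold of 0.05. Standard errors and 95% intervals derive from the F statistic. In fold changes deeper libraries weigh more, and in mean ± SD all weigh alike. With 2 against 2 libraries an exact two-sided permutation p cannot be below 0.333, so none is given. Exon lengths come from GENCODE 29 inside the deposited locus. The test was tried on simulated counts. Alternatives were scaling by total counts or by median of ratios, other filters, DESeq2 1.42.0, limma-voom 3.58.1, a replicate block, each library left out, primary chromosomes only, and thinning to the depth of control replicate 1. No pair of libraries was a duplicate.

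The members, the lists of partners and markers, and the rule for named genes were chosen with earlier results of these data known. The rule names the members, the gene whose start is nearest to each member's, and up to 2 abundant markers per list. It also names called genes and up to 2 tested genes with the smallest p in each list. TASOR, DAXX, GFAP, NANOG, PAX6, SOX2, HES5, ADNP and the genes high in control replicate 1 were named in addition, after their values were seen. A partner gene that the rule takes is not reported here.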

Additional observations from a re-analysis of the deposited data

How the results depend on the processing

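The members called higher numbered 0 under each setting run, and those called lower 0 to 2 with a library left out (TRIM28 and CBX5, without control replicate 2) and 0 otherwise. Over all genes, 0 called higher became 1 with DESeq2, and 4 called lower became 12 with DESeq2 and 2 with limma-voom; on dropping single libraries the counts were 2 to 580 higher and 15 to 798 lower. The 0 partners called became 1 with DESeq2 (HP1BP3) and 0 to 16 on dropping libraries. Signs turned for PPHLN1 (0.018 with limma-voom, and from -0.30 to 0.033 when single libraries were dropped), ATRX (-0.019 after thinning) and ASF1A (-0.10 to 0.17 on dropping libraries); the cause was not tested. CBX5, -1.59 with all 4 libraries, was -0.35 with limma-voom and spanned -2.46 to -0.01 on dropping single libraries. The mean CBX3 level of 185.5 CPM became 195 CPM on primary chromosomes only, by a smaller total, and its mean HP1 share of 50.7% became 45.3% with the authors' FPKM, a setting chosen after seeing the data. Of 117 values of the members, 112 kept direction and side of the threshold, 2 gained a call and 3 turned sign; of 202 values of the 16 partners taken by the naming rule the numbers were 186, 15 and 1.

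Nothing in the labels pairs the replicate numbers, and the correlation of deviations over 15708 genes was -0.03. With the replicate block 17 genes were called higher and 25 lower, 0 members and 3 partners (among them HP1BP3 at -0.72 and POGZ at -0.53). A group reduced to a single library was assumed to have the spread of the other group. Depth limits control replicate 1, where 3 counts equal 3.17 CPM.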

Other observations

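Several members share a start region with a gene on the opposite strand, which served as a neighbour to compare. HNRNPA1, an RNA-binding protein gene that starts 604 bp from CBX5, was at 728 and 779 CPM in CRISPRi neurons and 785 and 737 CPM in controls, so it was 1.05 times the other libraries in control replicate 1 where CBX5 was 5.61 times. HNRNPA2B1, which starts 697 bp from CBX3, was at 355 and 365 CPM in CRISPRi neurons and 570.4 and 339 CPM in controls, a ratio of 1.62 in control replicate 1 against 1.02 for CBX3. The long noncoding RNA TUG1 starts 437 bp from MORC2 and was at 354 and 257 CPM in CRISPRi neurons and 285 and 335 CPM in controls. It was lowest in CRISPRi replicate 2, the library in which MORC2 was highest. ZCRB1, a splicing factor gene 51 bp from PPHLN1, was at 29.7 to 31.7 CPM in the 3 deep libraries and 37.0 CPM in control replicate 1, and both it and PPHLN1 were highest in control replicate 1.

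The other members have more distant neighbours. ZBTB45 starts 2352 bp from TRIM28 and was 0.848 times the other libraries in control replicate 1, and SNX11, 6055 bp from CBX1, was at 0.928 times. MAGT1, a magnesium transporter gene 109352 bp from ATRX, was at 7.40 and 7.10 CPM in CRISPRi neurons and 38.1 and 7.12 CPM in controls, again high only in control replicate 1. CTXND2 and LINC00350, the nearest to SETDB1 and MPHOSPH8, had 0 counts in every library. The CBX3 copy CBX3P2 had 28 and 19 counts in CRISPRi neurons and 0 and 26 in controls.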
